A study of Mus musculus with 8 samples.

Results

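Laminins are heterotrimers of an α, a β and a γ chain that assemble in the endoplasmic reticulum and polymerise into the sheet of the basement membrane on which epithelium rests. In the mammary gland the basement membrane lies under the contractile basal cells and is contacted by luminal cells where the basal layer is open, and laminin signals through integrins are known to be needed for milk protein expression in cultured alveolar cells. The combination of chains defines the laminin: the α3 and β3 chains belong to laminin-332, which anchors hemidesmosomes, while the β1 or β2 chain with γ1 makes up the laminins that self-assemble with α1, α2 or α5.

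The 8 laminin chain genes Lama1, Lama3, Lama4, Lama5, Lamb1, Lamb2, Lamb3 and Lamc1 were taken by gene symbol from the 27998 genes of the count matrices, and each symbol matched 1 gene ID. The matrices hold single-cell RNA-seq of EpCAM-sorted mammary epithelial cells of C57BL/6N mice, with cells positive for the endothelial and blood markers CD31, CD45 and Ter119 gated out. There were 4 stages with 2 mice each. NP mice were nulliparous and 8 weeks old, G mice were pregnant at day 14.5, L mice had been nursing until day 6, and in PI mice the gland had involuted for 11 days since the pups were weaned naturally. The study's notes place 1 PI mouse in diestrus and the other PI mouse and the NP mice in estrus. Of 25806 cell barcodes, 25009 passed the authors' quality flags and matched their annotation, and those flags had removed the 791 cells whose barcodes were shared between libraries. Library totals ran from 13785920 to 35711533 UMIs (unique molecular identifiers, 1 per captured molecule).

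UMIs were summed per mouse and per cluster of the authors' annotation (C1 to C19, their doublet cluster C20 left out), and the 51 sums of 20 or more cells held 24516 cells and 111570 to 26454518 UMIs each. Levels are given as CPM, UMIs scaled to a total of 1000000 per sum. Each sum carried its cluster's markers, and some held those of another lineage as well. The summed level of Krt8, Krt18, Krt19 and Epcam was 2650 to 24927 CPM in the luminal clusters C1 to C11. The summed level of Krt5, Krt14, Acta2 and Myh11 was 7060 to 36787 CPM in the basal clusters C12 (NP and PI), C13 (G) and C14 (L, named myoepithelial by the authors). The basal C12 also held luminal markers, at 5815 and 3919 CPM in NP and 2985 and 7775 CPM in PI. C15, from L mice, held 5527 and 4832 CPM of pericyte markers and 9616 and 11378 CPM of the 4 basal markers. In C17 of L the basal markers summed to 10257 and 2805 CPM. Cells outside the epithelium passed the sort as well: C18 was fibroblast-like (14015 to 53314 CPM of 6 fibroblast markers), C19 endothelial-like (3254 to 4228 CPM of 6 endothelial markers) and C17 immune-like (34457 to 50994 CPM of 5 immune markers), while C16 (3843 CPM of immune markers in 1 mouse) was left unnamed.

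In the annotation of the build that the files use (mm10, GRCm38), the chains map as follows. Lama1 (ENSMUSG00000032796) lies at chr17:67697259-67822647 on the plus strand and Lama3 (ENSMUSG00000024421) at chr18:12333819-12583013 on the plus strand. Lama4 (ENSMUSG00000019846) lies at chr10:38965515-39110188, plus strand, and Lama5 (ENSMUSG00000015647) at chr2:180176373-180225859, minus strand. Lamb1 (ENSMUSG00000002900) lies at chr12:31265234-31329644, Lamb2 (ENSMUSG00000052911) at chr9:108479736-108490530 and Lamb3 (ENSMUSG00000026639) at chr1:193207699-193343878, all on the plus strand. Lamc1 (ENSMUSG00000026478) lies at chr1:153218922-153332786 on the minus strand. The Lamb3 span of this annotation overlaps 4 other measured genes, 3 of them on the opposite strand (Hsd11b1, G0s2 and Gm37650), and all 4 end before the RefSeq start windows of Lamb3. An antisense gene, Gm29200, lies within Lama3.

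RefSeq start windows (GRCm38.p6) were at hand for 4 of the 8 chains: Lama5, Lamb1, Lamb2 and Lamb3. The 250 bases before the start are shown for Lama5, highest in hormone-sensing cells among the luminal and basal clusters, and for Lamb1 and Lamb3, which moved in opposite directions in basal cells at lactation. The windows are chr2:180225860-180226109 (minus strand), chr12:31265043-31265292 and chr1:193301744-193301993, each written 5′ to 3′ towards the start. Capitals mark the GC box GGGCGG and the CCAAT box on either strand.

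Lama5: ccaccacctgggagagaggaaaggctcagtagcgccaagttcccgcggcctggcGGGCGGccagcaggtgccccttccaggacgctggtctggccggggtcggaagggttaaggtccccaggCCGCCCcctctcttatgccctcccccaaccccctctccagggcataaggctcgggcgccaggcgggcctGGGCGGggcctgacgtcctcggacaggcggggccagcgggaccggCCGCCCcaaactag

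Lamb1: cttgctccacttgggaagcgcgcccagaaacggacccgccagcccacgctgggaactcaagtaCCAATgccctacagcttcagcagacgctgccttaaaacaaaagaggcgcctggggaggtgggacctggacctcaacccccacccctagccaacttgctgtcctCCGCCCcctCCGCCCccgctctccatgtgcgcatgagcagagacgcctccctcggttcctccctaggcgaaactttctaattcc

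Lamb3: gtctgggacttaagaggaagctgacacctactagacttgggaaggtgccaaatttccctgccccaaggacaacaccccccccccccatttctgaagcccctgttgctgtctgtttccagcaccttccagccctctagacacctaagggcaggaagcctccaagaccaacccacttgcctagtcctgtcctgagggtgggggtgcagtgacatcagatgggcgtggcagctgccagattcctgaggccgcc

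The Lama5 window held 4 GC boxes and was 72.4% G and C. The Lamb1 window held 2 GC boxes and 1 CCAAT box at 62.0% G and C. Neither window of Lamb3 (the second is chr1:193301993-193302242) held a GC box, a CCAAT box, a TATA box (TATAAA) or an AP-1 site (TGANTCA), and neither did the Lamb2 window, at 43.6% G and C. Of the 32851 windows in the RefSeq table, 32.7% held a GC box, 33.8% a CCAAT box, 12.4% a TATA box and 6.75% an AP-1 site on either strand, so these letters are common and their presence is a description only.

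Because the clusters were built from these same counts, levels between clusters are given as descriptions without a test. The orders below run over the 24 groups of cluster and stage that had both mice.

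Lama1, the α chain of laminin-111, was high in basal cells of G and L only among the groups measured. It stood at 55.3 and 48.7 CPM in C14 and 58.4 and 39.6 CPM in C13, which overlapped, and the next group, C17 of L, had 17.9 and 6.70 CPM. In basal C12 of NP it was at 5.17 and 5.03 CPM, from 22 and 11 UMIs. Lama3, the α chain of laminin-332, had 116 and 118 CPM in C14, 103 and 93.1 CPM in C13, and 65.1 and 64.0 CPM in C12 of NP. Every luminal group of both mice lay at 17.6 CPM or below.

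Lama5, the α chain of laminin-511 and laminin-521 and a broad epithelial chain, led the α chain UMIs in the luminal clusters C1 to C7 and in C8, where it held 45.9% and 49.5% beside 38.6% of Lama4 in both mice. In L replicate 1 Lama3 was ahead by few UMIs, with 10 against 8 of Lama5 in C9 (40.0% and 32.0%). In C11 of that mouse it had 19 against 16 UMIs (40.4% and 34.0%). In L replicate 2 Lama5 led, with 15 UMIs against 1 of Lama3 in C9 and 21 against 10 in C11. Among the luminal and basal clusters Lama5 was highest in hormone-sensing cells of NP. It was at 73.5 and 73.1 CPM in the progenitors (C2) and 76.2 and 67.6 CPM in the differentiated cells (C4), which overlapped. It followed at 65.1 and 61.7 CPM in C1 and 69.9 and 48.0 CPM in C3, both of PI. Luminal progenitors had 45.6 and 40.2 CPM (C6 of NP) and 44.2 and 41.4 CPM (C7 of PI). It was lowest of the luminal groups in differentiated alveolar cells of G (C8), at 8.51 and 9.93 CPM. Pericyte-marked C15 had 66.8 and 133 CPM from few cells, and its mice overlapped those of C2.

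Lama4, an α chain of vessel and stromal laminins, was highest in the fibroblast-like C18, at 226 and 206 CPM in G, and reached 99.9 and 87.5 CPM in the endothelial-like C19 of G and 79.2 and 48.9 CPM in C15. Within the luminal and basal clusters it was highest in basal C13, at 27.3 and 29.1 CPM, and basal C14 had 13.4 and 16.1 CPM. In NP, basal C12 at 16.9 and 13.7 CPM overlapped luminal progenitors at 14.5 and 15.8 CPM. It was lower in hormone-sensing progenitors of NP, at 8.70 and 7.80 CPM, and in differentiated hormone-sensing cells of NP, at 0.632 and 0.207 CPM. The last value rests on 8 and 3 UMIs.

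Of the β chains, Lamb3, the β chain of laminin-332, had 272 and 292 CPM in C14, 150 and 131 CPM in C13 and 102 and 111 CPM in C12 of NP. These 3 groups did not overlap. Lamb1, a widespread β chain, peaked in C18 of G at 439 and 432 CPM, with 88.5 and 75.3 CPM in C13 as the highest epithelial group, and it was at 0.632 and 0.965 CPM in differentiated hormone-sensing cells of NP. Lamb2, the β chain of vessel and neuromuscular laminins, was highest in C15 at 163 and 142 CPM. Over the luminal groups its means ran from 7.74 to 18.4 CPM. The highest of these, C4 of PI, lay above the next, C4 of NP, in both mice, and the other neighbours in that order overlapped.

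Lamc1, the γ chain of most laminins, was highest in C18 of G at 435 and 432 CPM, followed by C18 of L at 341 and 347 CPM and basal C13 at 323 and 358 CPM, which overlapped. It was at 148 and 144 CPM in C14 and 91.9 and 101 CPM in C12 of NP. In luminal cells it reached 73.0 and 124 CPM in differentiated hormone-sensing cells of G (C5), against 35.0 and 37.6 CPM in those of NP. Its lowest mean was in luminal progenitors of PI, at 10.0 and 13.9 CPM, which overlapped C9 of L at 15.7 and 13.5 CPM.

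**Figure D1:**
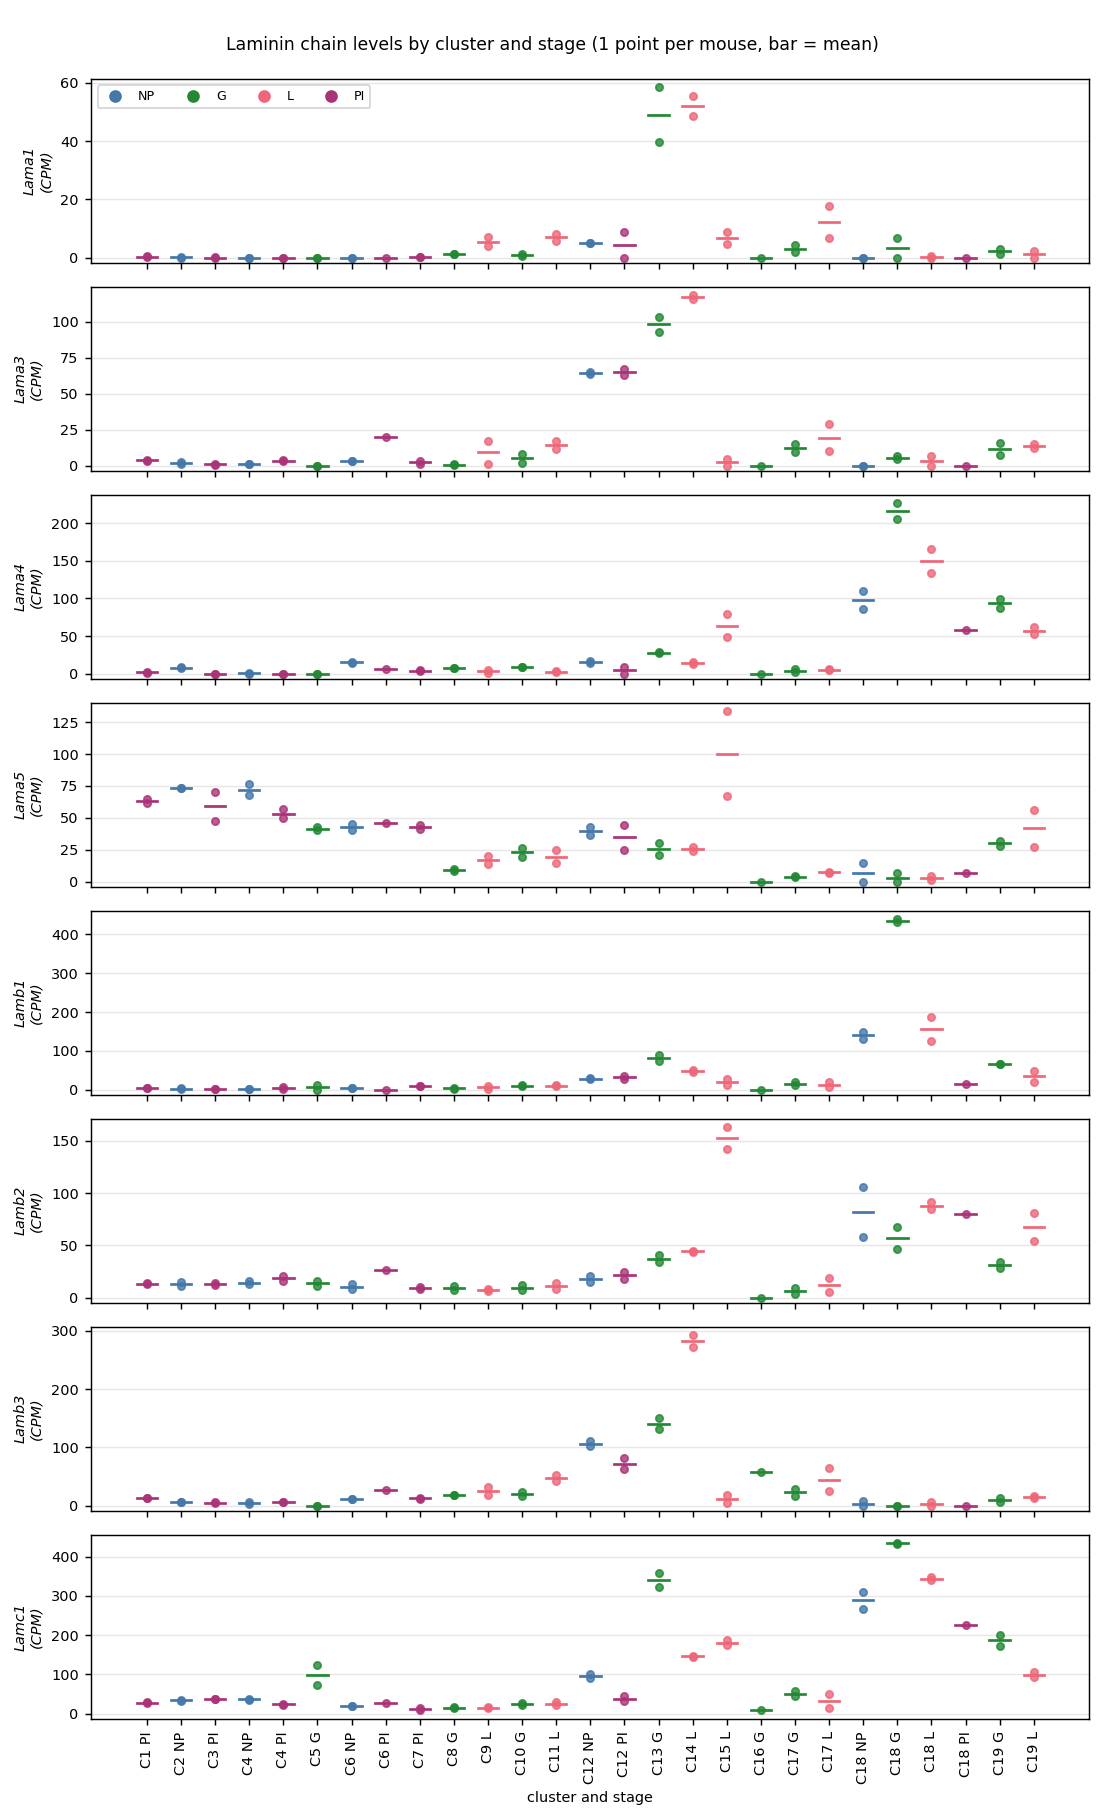
Level of each of the 8 laminin chains (y, CPM) in each cluster and stage (x), with 1 point per mouse coloured by stage and a bar at the mean; C6 of PI, C16 and C18 of PI have 1 mouse with 20 or more cells. Lama1, Lama3 and Lamb3 peak in basal C13 and C14, Lama5 is spread over the luminal clusters and C15, and Lama4, Lamb1 and Lamc1 peak in fibroblast-like C18.

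The chains were also set against one another within a sum, as a share of all α or β chain UMIs (with Lama2 added to the α chains). These are shares of 3′ tags, 1 per molecule with no scaling by length, and capture can differ between transcripts. Lama5 made up 97.7% of α chain UMIs in 1 NP mouse and 98.2% in the other in differentiated hormone-sensing cells, with exact 95% binomial intervals of 96.5% to 98.5% and 97.2% to 98.9% that cover counting error only. In basal C14 it made up 12.7% and 11.5%, and Lama3 led with 54.2% and 56.8%. Lama1 made up 4.0% and 4.2% of α chain UMIs in C12 of NP and 27.0% and 20.4% in C13.

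Among β chains, Lamb3 held 68.2% and 70.8% in C12 of NP, 53.7% and 54.4% in C13, and 74.2% and 76.8% in C14. Lamb2 led in differentiated hormone-sensing cells of NP with 66.3% and 77.2%, and Lamb1 in C18 of G with 86.6% and 90.3%. The share of Lamb1 in basal cells was larger in C13, at 31.8% and 31.3%, against 18.1% and 19.6% in C12 of NP and 13.6% and 11.8% in C14.

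**Figure D2:**
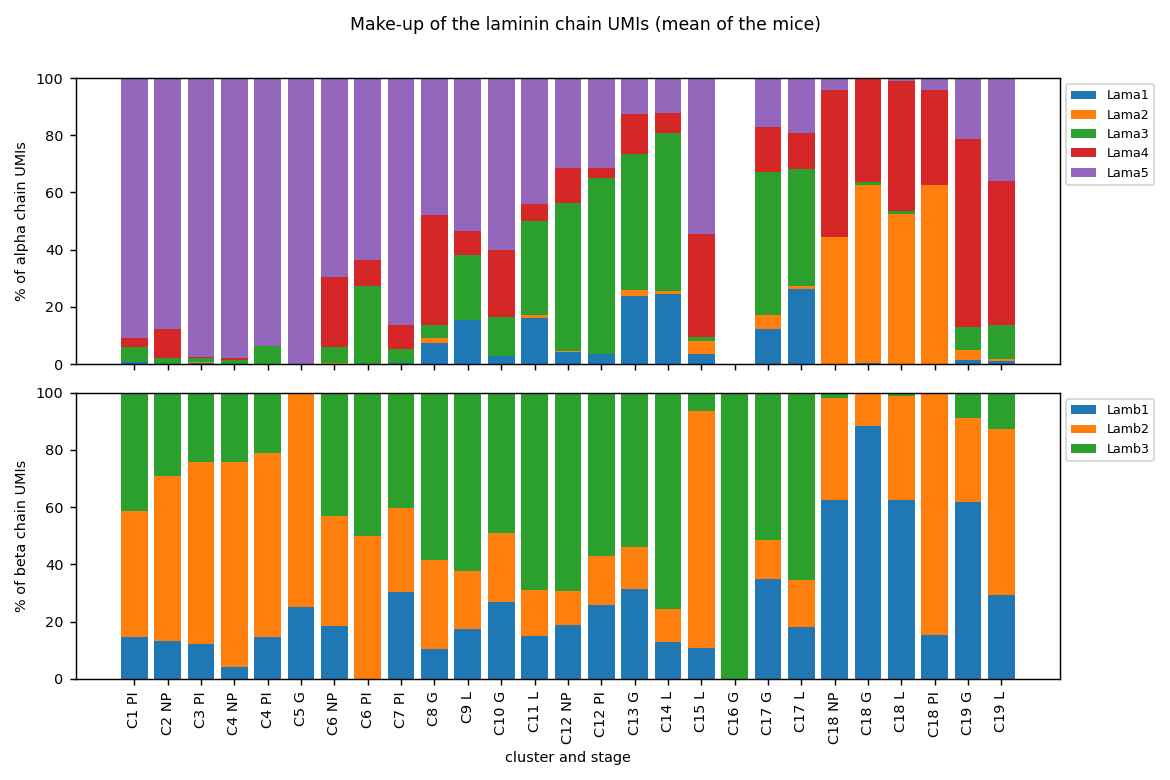
Share of each gene among the α (top) and β (bottom) chain UMIs (y, percent, mean of the mice) in each cluster and stage (x). Lama5 fills most of the α bar in C1 to C7 and Lama3 leads in the basal clusters, and Lamb1 takes a larger part of the β bar in C13 than in C12 of NP or C14; C16 has no α chain UMI.

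Counted per cell, Lamb3 had a UMI in 64.8% and 70.1% of C14 cells (median 3701 and 4148 UMIs per cell). In immune-like C17 cells of the same mice it had a UMI in 18.9% and 7.69% (median 5255.5 and 5416 UMIs). The source of the Lamb3 RNA in C17 was not tested. With cells thinned to 1000 UMIs each, Lamb3 was found in 23.2% and 24.8% of C14 cells and 3.30% and 1.92% of C17 cells. Lamc1 had a UMI in 81.1% and 88.2% of C13 cells and 20.0% and 17.4% of C17 cells of G. For Lama1 the shares were 32.4% and 21.2% in C13, 21.0% and 21.0% in C14, and 4.37% and 3.55% in C12 of NP. Thinned, Lama1 was found in 6.48% and 3.87% of C13 cells and 1.19% and 0.355% of C12 cells of NP.

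Over the 51 sums, the genes whose log2(CPM + 1) ran most like each chain were named from 10086 genes with a mean of 20 CPM or more in some cluster. The points share libraries and clusters, so the correlations are descriptions. Nearest to Lamc1 was Nid1, the nidogen that links laminin to collagen IV (Pearson r = 0.92), then Fkbp10 (r = 0.90) and the collagen chaperone Serpinh1 (r = 0.90). Nearest to Lamb1 were Fkbp10 (r = 0.89), Col4a1 (r = 0.88) and Fbn1 (r = 0.87), and nearest to Lama4 were Plod2 (r = 0.90), Hspg2 or perlecan (r = 0.89) and Igfbp4 (r = 0.88). Lama1 ran most like the smooth muscle genes Kcnmb1 (r = 0.89) and Actg2 (r = 0.87) and Fmod (r = 0.86).

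Lama3 ran most like Speer4e, Gm21190 (both r = 0.89, near-identical copies whose reads may be split) and Trp63, the basal transcription factor p63 (r = 0.89). Lamb3 had lower values, with Fbxo32 (r = 0.79), Trp63 (r = 0.78) and Stk26 (r = 0.77). Lama5 ran most like Cobll1 (r = 0.88), the laminin α5 receptor Bcam (r = 0.86) and 2200002D01Rik (r = 0.82). For Lamb2 they were Klf9 (r = 0.86), Nfia (r = 0.86) and Pkd2 (r = 0.85). Between the chains r was 0.81 for Lamb2 with Lamc1, 0.79 for Lamb1 with Lamc1 and 0.76 for Lama3 with Lamb3. It was -0.40 for Lama5 with Lamb1.

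To ask how the chains change over the reproductive cycle, G was compared with NP, L with G and PI with NP in matching cell types, with edgeR's quasi-likelihood test over all genes and Benjamini-Hochberg adjustment. A chain is called at an adjusted p below 0.05, and fold changes are log2 differences of normalised counts ± SE with n = 2 mice a group. With 2 mice against 2, the exact permutation test over the samples cannot go below p = 0.333, so no p is given for single values. The matched cell types of different stages are mostly separate clusters, defined on these counts. The p-values therefore test differences between groups that the clustering had already drawn apart. The spread they use is not that of the 2 mice a group alone, as given in the processing section. The 10 comparisons share control samples, and their values are set side by side without a test of overlap.

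In basal cells of gestation (C13) against nulliparous (C12), 7 of the 8 chains rose and Lama5 fell. Of all 11846 genes tested, 40.4% were called in this comparison (21.4% higher and 19% lower). The median log2 difference was 1.03 over the chains and 0.01 over all genes.

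Lama1 rose from 5.17 and 5.03 CPM in the NP mice to 58.4 and 39.6 CPM in the G mice, a log2 difference of 3.34 ± 0.28 (SE, adjusted p = 2.1e-07 by edgeR). Both G mice stood far above both NP mice. Lamc1 rose from 91.9 and 101 to 323 and 358 CPM (1.91 ± 0.14, adjusted p = 4.3e-08), and Lamb1 from 27.0 and 30.7 to 88.5 and 75.3 CPM (1.60 ± 0.17, adjusted p = 2.0e-06). Together with Lama1 these are the chains of laminin-111.

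Lamb2 rose from 20.4 and 15.1 to 40.4 and 34.3 CPM (1.12 ± 0.20), Lama4 from 16.9 and 13.7 to 27.3 and 29.1 CPM (0.94 ± 0.23), and Lama3 from 65.1 and 64.0 to 103 and 93.1 CPM (0.69 ± 0.14). The rise of Lamb3 was the smallest, from 102 and 111 to 150 and 131 CPM (0.48 ± 0.14, adjusted p = 0.013). Lama5 fell from 42.8 and 36.6 to 21.0 and 30.2 CPM (-0.56 ± 0.20, adjusted p = 0.035). The call of Lama5 was lost without G replicate 1 or either NP mouse (adjusted p = 0.312, 0.259 and 0.102 by edgeR), and that of Lamb3 without G replicate 1 or NP replicate 1 (0.120 and 0.170). Of the other chains, Lamc3 went from 2 and 1 UMIs to 21 and 28 UMIs, and Lama2 was too low to test.

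The basal clusters differed in their luminal keratins as well. All 4 luminal markers fell from NP to G, their sum going from 5815 and 3919 CPM in C12 to 1253 and 1356 CPM in C13. Cells in which Krt8 and Krt18 made up under 0.25 of the Krt8, Krt18, Krt5 and Krt14 UMIs were 23.4% and 35.5% of C12 cells in NP and 73.3% and 73.2% of C13 cells. In a fit on those cells alone, chosen after seeing the data, 5 chains rose: Lama1 (3.18), Lamc1 (1.90), Lamb1 (1.46), Lamb2 (1.10) and Lama3 (0.80). Lama4 at 0.48, Lamb3 at -0.02 and Lama5 at -0.17 did not pass (adjusted p = 0.198, 0.935 and 0.704 by edgeR).

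Fibroblast markers moved with the stage too: 4 of 6 rose from NP to G in basal cells, from a summed 177 and 262 CPM to 885 and 680 CPM. That sum was 1.87% and 1.28% of its level in C18 of the same G mice. Lamc1 stood at 74.4% and 82.7% of its C18 level, Lamb2 at 59.5% and 73.7%, Lamb1 at 20.1% and 17.4% and Lama4 at 12.1% and 14.1%. Lama2, a chain of the fibroblast-like cells, stood at 2.34% and 0.40%. The part of fibroblast RNA in the rise of the chains was not tested. Nor was that of dissociation stress, for which 7 of 9 genes rose, or of immune RNA, for which 4 of 4 tested markers rose.

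**Figure D3:**
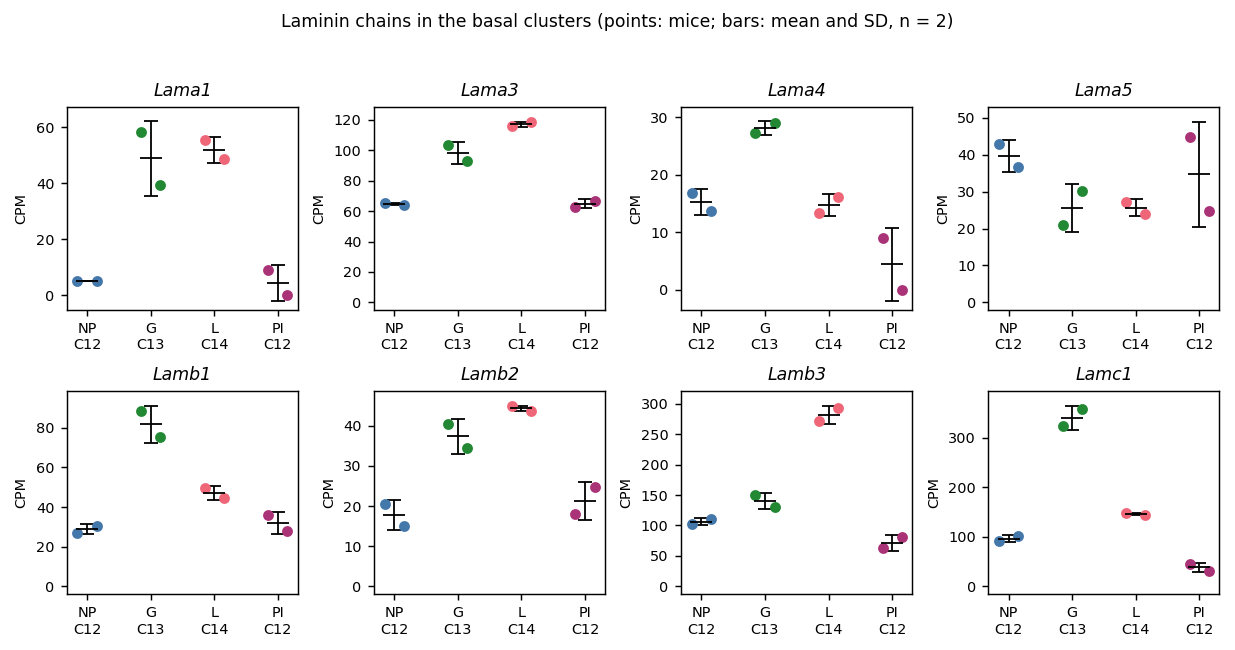
Level of each laminin chain (y, CPM) in the basal cluster of each stage (x), with 1 point per mouse and bars for the mean and SD of the 2 mice. Lama1 rises from about 5.10 CPM in NP to 49.0 CPM in G and 52.0 CPM in L, Lamc1 and Lamb1 peak in G, and Lamb3 and Lama3 peak in L; the PI points rest on 27 and 53 cells.

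From gestation to lactation (C14 against C13), Lama3 and Lamb3 rose and Lama4, Lamb1 and Lamc1 fell. Thus 2 of the 8 rose, 3 fell and 3 were not called, where 50.1% of all genes were called (24.9% higher and 25.1% lower). Lamb3 rose from 150 and 131 to 272 and 292 CPM (1.13 ± 0.14, adjusted p = 3.6e-06 by edgeR), and Lama3 from 103 and 93.1 to 116 and 118 CPM (0.38 ± 0.13, adjusted p = 0.022). In the mice of L both lay above both mice of G. The call of Lama3 was lost without G replicate 2 or L replicate 2 (adjusted p = 0.171 and 0.0685 by edgeR).

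Lamc1 fell from 323 and 358 to 148 and 144 CPM (-1.10 ± 0.13, adjusted p = 2.8e-06 by edgeR), Lama4 from 27.3 and 29.1 to 13.4 and 16.1 CPM (-0.81 ± 0.19) and Lamb1 from 88.5 and 75.3 to 49.6 and 44.8 CPM (-0.67 ± 0.14). Lama1, at 55.3 and 48.7 CPM in L, and Lama5, at 27.2 and 23.9 CPM, overlapped the G mice. Lamb2, at 44.8 and 43.7 CPM, did not overlap them and had a log2 difference of 0.37 ± 0.16 (adjusted p = 0.068). Lamc3 fell from 21 and 28 UMIs to 8 and 8 UMIs in far deeper sums. On the cells of low luminal keratin the same 5 chains were called in the same directions, and Lamb2 was called as well (0.40, adjusted p = 0.041 by edgeR). All 9 dissociation stress genes rose from G to L, to a summed 23407 and 19056 CPM, and their part in these values was not tested.

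In basal cells of PI against NP (both C12), Lamc1 alone of the 8 was called, where 4.82% of all genes were (2.02% higher and 2.8% lower). It fell from 91.9 and 101 CPM to 44.8 and 31.7 CPM (-1.58 ± 0.31, adjusted p = 0.0052 by edgeR). The PI values rest on 5 and 9 UMIs of 27 and 53 cells, and without PI replicate 2 the call was lost (-1.33, adjusted p = 0.285). The median over all genes was itself shifted, to -0.21. Lama3 (62.7 and 66.9 CPM), Lama5, Lamb1, Lamb2 and Lama1 overlapped the NP mice, Lamb3 at 62.7 and 81.0 CPM lay below them (-0.64 ± 0.26, adjusted p = 0.185), and Lama4 had 1 and 0 UMIs. Of the 5 immune markers 4 were at 0 UMIs in both PI mice, and the remaining one stood at 851 CPM in PI replicate 1 and 10.6 CPM in PI replicate 2. Its part was not tested. The 4 luminal markers, none of them called, summed to 5815 and 3919 CPM in NP and 2985 and 7775 CPM in PI. In PI replicate 2 the basal markers summed to 7060 CPM. The part of luminal RNA was not tested.

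In luminal progenitors of PI (C7) against NP (C6), Lama4 fell from 14.5 and 15.8 to 3.25 and 4.89 CPM (-1.77 ± 0.29, adjusted p = 4.5e-04 by edgeR). Lamb1 rose from 5.13 and 4.98 to 9.06 and 9.91 CPM (1.01 ± 0.30, adjusted p = 0.022), a call that was lost without any 1 of the 4 mice (adjusted p = 0.0630 to 0.128 by edgeR). These were 2 of 8 chains, where 26.1% of all genes were called (14.4% higher and 11.7% lower). Lama5 was level at 44.2 and 41.4 CPM in PI and 45.6 and 40.2 CPM in NP, with a log2 difference of 0.10 ± 0.17. Of 5 fibroblast markers tested, 3 fell in the same comparison (median log2 difference -3.90), and the 6 of the list summed to 6.64 and 185 CPM in NP against 0.947 and 21.2 CPM in PI. Their part in the fall of Lama4 was not tested.

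In hormone-sensing progenitors of PI (C1) against NP (C2), 7 of the 8 chains were abundant enough to test and 2 were called, where 16.2% of all genes were (9.45% higher and 6.8% lower). Lama4 fell here too, from 8.70 and 7.80 to 2.65 and 1.59 CPM (-2.10 ± 0.40, adjusted p = 0.0047 by edgeR), and Lamb3 rose from 6.57 and 6.65 to 12.7 and 12.5 CPM (0.93 ± 0.26, adjusted p = 0.029). The first call was lost without NP replicate 1 (adjusted p = 0.0521 by edgeR), and the second without PI replicate 2 or either NP mouse (0.104 to 0.170). In differentiated hormone-sensing cells of PI (C3) against NP (C4), 5 chains were tested and Lamb1 was called (17.6% of all genes were, 7.99% higher and 9.62% lower). It rose from 0.632 and 0.965 CPM to 3.00 and 2.25 CPM (1.5 ± 0.52, adjusted p = 0.041). The call was lost without either PI mouse or either NP mouse (adjusted p = 0.057 to 0.423), and the NP values rest on 8 and 14 UMIs. Lama5, the main α chain of these cells, had 69.9 and 48.0 CPM in PI and 76.2 and 67.6 CPM in NP and was not called (-0.43 ± 0.17, adjusted p = 0.077). Basal markers fell in 3 of 4 cases here, their sum going from 121 and 50.4 CPM in NP to 9.30 and 18.6 CPM in PI, and their part was not tested.

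In differentiated hormone-sensing cells of G (C5, 20 and 41 cells) against NP, Lamc1 rose from 35.0 and 37.6 to 73.0 and 124 CPM (1.27 ± 0.29, adjusted p = 0.0020 by edgeR), and Lama5 fell from 76.2 and 67.6 to 40.6 and 42.6 CPM (-1.05 ± 0.35, adjusted p = 0.038). These were 2 of 5 chains tested, where 15.7% of all genes were called (6.46% higher and 9.2% lower) and the median of all genes was -0.24. The G values of Lamc1 rest on 9 and 32 UMIs, and without G replicate 2 its call was lost (0.72, adjusted p = 0.549 by edgeR). That of Lama5 was lost without either G mouse or NP replicate 1 (0.0839 to 0.388). Lamb3 had 0 UMIs in both G mice, which allows up to 24.3 and 11.6 CPM, above the 6.08 and 3.65 CPM of the NP mice, so a difference was not detectable at this depth. Of the 4 luminal markers 3 fell, from a summed 21483 and 16562 CPM to 9834 and 10578 CPM, and their part was not tested.

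In alveolar progenitors of G (C10) against luminal progenitors of NP (C6), Lama5 fell from 45.6 and 40.2 to 26.8 and 19.3 CPM (-0.94 ± 0.22, adjusted p = 0.0038 by edgeR). Lamb1 rose from 5.13 and 4.98 to 13 and 8.73 CPM (1.05 ± 0.36, adjusted p = 0.031), and Lamb3 from 11.8 and 12 to 23.0 and 16.8 CPM (0.70 ± 0.27, adjusted p = 0.046). These were 3 of 8 chains, where 43.2% of all genes were called (22.1% higher and 21.1% lower). Lama5 lost its call without G replicate 2 (adjusted p = 0.0689 by edgeR), and Lamb1 and Lamb3 without G replicate 1 or either NP mouse (0.0780 to 0.294). All 4 luminal markers fell between these sums, from 23752 and 19759 CPM to 7599 and 9138 CPM, and 2 of 4 basal markers rose, with a sum of 113 and 61.4 CPM in NP and 133 and 211 CPM in G. Of 3 immune markers tested 2 rose, and the 5 of the list summed to 10.9 and 12.9 CPM in NP and 36.7 and 40.6 CPM in G. The part of these in the laminin values was not tested.

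Lama1, Lama3 and Lamb3 were called higher in lactation in the sums of both alveolar cell types. Whether this RNA came from the alveolar cells themselves was not tested. In alveolar progenitors of L (C11) against G (C10), Lama1, Lama3 and Lamb3 rose, 3 of 8 chains where 28.6% of all genes were called (15.7% higher and 12.9% lower). Lamb3 rose from 23.0 and 16.8 to 51.8 and 42.3 CPM (1.56 ± 0.25, adjusted p = 4.0e-04 by edgeR), Lama1 from 0.765 and 1.25 to 8.33 and 5.88 CPM (3.06 ± 0.81, adjusted p = 0.013) and Lama3 from 2.30 and 8.11 to 17.6 and 11.8 CPM (1.74 ± 0.59, adjusted p = 0.039). The Lama1 values rest on 1 and 2 UMIs in G and 9 and 5 in L, and the call was lost without either G mouse (adjusted p = 0.103 and 0.0824 by edgeR). That of Lama3 was lost without G replicate 1 or either L mouse (0.0503 to 0.264).

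In differentiated alveolar cells of L (C9, 42 and 47 cells) against G (C8), 4 of 8 chains rose, where 18.4% of all genes were called (9.26% higher and 9.16% lower). Lama5 rose from 8.51 and 9.93 to 14 and 20.2 CPM (1.82 ± 0.38, adjusted p = 0.0057 by edgeR), Lama1 from 1.47 and 1.37 to 6.99 and 4.04 CPM (2.80 ± 0.73, adjusted p = 0.020) and Lamb3 from 17.6 and 17.6 to 31.4 and 17.5 CPM (1.32 ± 0.31, adjusted p = 0.012). Lama3 was called with 10 and 1 UMIs in the L mice, and it was not called without L replicate 1 or either G mouse (adjusted p = 0.465 to 0.616 by edgeR). Lama1 and Lamb3 lost their calls without L replicate 1 (0.147 and 0.153) and Lama5 without L replicate 2 (0.0984). The 8 milk protein genes summed to 447538 and 417202 CPM in C9, which lowers every other CPM there, and the fold changes are normalised counts, so the Lamb3 mice overlap in CPM although the chain was called.

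Basal markers moved with these luminal values in L. Krt5, Krt14, Acta2 and Myh11, all 4 of which rose, summed to 5239 and 3768 CPM in C11 against 133 and 211 CPM in C10, and to 2198 and 952 CPM in C9 against 118 and 114 CPM in C8. In the immune-like C17 of the L mice they summed to 10257 and 2805 CPM. As a share of the level in basal C14 of the same mouse, the marker sum in C11 was 14.2% and 11.4%. Lama1 in C11 was at 15% and 12.1% of its C14 level, Lama3 at 15.2% and 9.93% and Lamb3 at 19.1% and 14.5%. In C9 the markers were at 5.97% and 2.88%, Lama1 at 12.6% and 8.30%, Lama3 at 15.1% and 1.14% and Lamb3 at 11.6% and 5.99%. In C10 of G, relative to C13 of the same mouse, the markers were at 0.690% and 1.39%. There Lamb3 was at 15.3% and 12.9%, Lama1 at 1.31% and 3.15% and Lama3 at 2.23% and 8.71%. In C17 the markers were at 27.9% and 8.48% and Lamb3 at 23.5% and 8.79%.

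Lama5, at 27.2 and 23.9 CPM in C14, was in C11 at 54.4% and 103% of its C14 level. In C9 it was at 51.4% and 84.4%, where the markers were at 5.97% and 2.88%. In C11 Lamb2 was at 31.0% and 18.8%, Lamb1 at 16.8% and 26.2%, Lamc1 at 20.0% and 14.7% and Lama4 at 13.8% and 22.0%. In C9 Lamb2 was at 19.5% and 15.4%, Lamb1 at 3.52% and 24.1%, Lamc1 at 10.6% and 9.34% and Lama4 at 39.0% and 8.39%. The part of basal RNA in the lactation values of the chains in luminal cells was not tested. Other lists rose from G to L as well. In the progenitors 8 of 9 dissociation stress genes rose, from a summed 10026 and 8056 CPM to 19385 and 13155 CPM, as did 2 of 3 immune markers tested, the 5 of that list summing to 36.7 and 40.6 CPM in G and 312 and 252 CPM in L. In the differentiated cells 9 of 9 stress genes rose, from 5825 and 4149 to 7630 and 7330 CPM, and 3 of 5 immune markers, from 58.4 and 71.4 to 257 and 56.6 CPM. Their part was not tested.

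**Figure D4:**
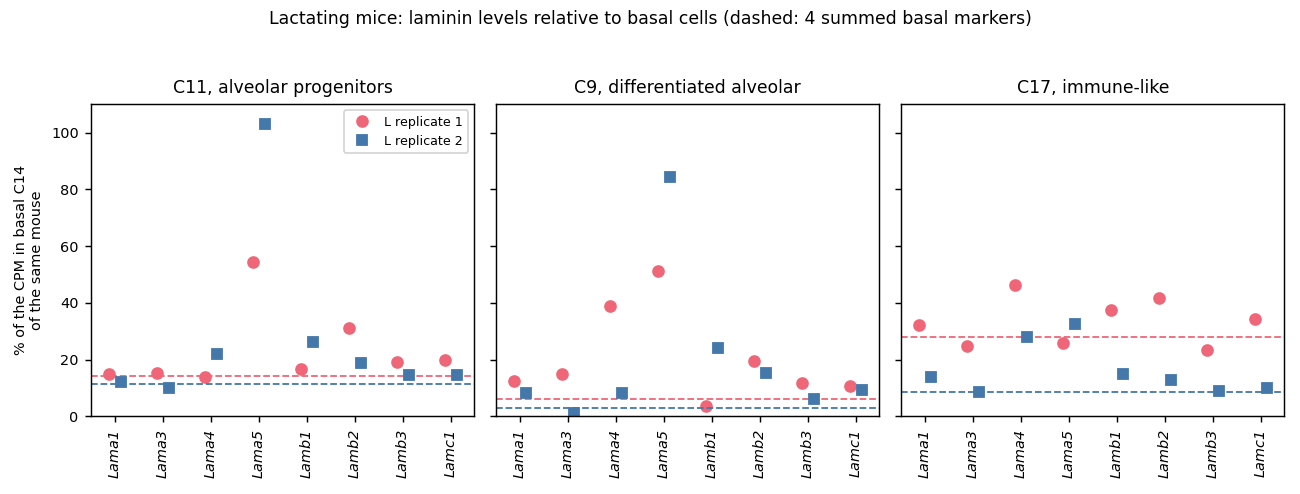
Level of each chain in alveolar progenitors (C11), differentiated alveolar cells (C9) and immune-like cells (C17) of the 2 lactating mice (y, percent of the CPM in basal C14 of the same mouse), with a dashed line per mouse for the 4 summed basal markers. Lama1 and Lama3 in C11 lie near the lines, and Lama5 lies well above them in C11 and C9.

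Whether a change differed between cell types was tested with the stage by cell type interaction in 1 model per pair of stages. For L against G, over basal cells, alveolar progenitors and differentiated alveolar cells, 5 of the 8 chains differed, where 27% of all genes did. They were Lamc1 (adjusted p = 4.4e-05 by edgeR), Lama3 (6.8e-04), Lama1 (9.9e-04), Lamb1 (0.0069) and Lama5 (0.0095). The change of Lamc1 in basal cells was 1.41 lower on the log2 scale than that in alveolar progenitors. The test does not separate the basal markers above from the cells' own RNA. Lamb3, which was called in all 3 cell types, did not pass (adjusted p = 0.515).

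For PI against NP, over basal cells, luminal progenitors and both hormone-sensing types, Lamc1 (adjusted p = 0.0041 by edgeR) and Lamb3 (0.021) differed, where 19.2% of all genes did. Among the luminal types alone, a comparison added after seeing the data, neither passed (adjusted p = 0.131 and 0.154). The fall of Lama4 in PI did not differ between the cell types by this test (adjusted p = 0.797), which does not show that it was equal.

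**Figure D5:**
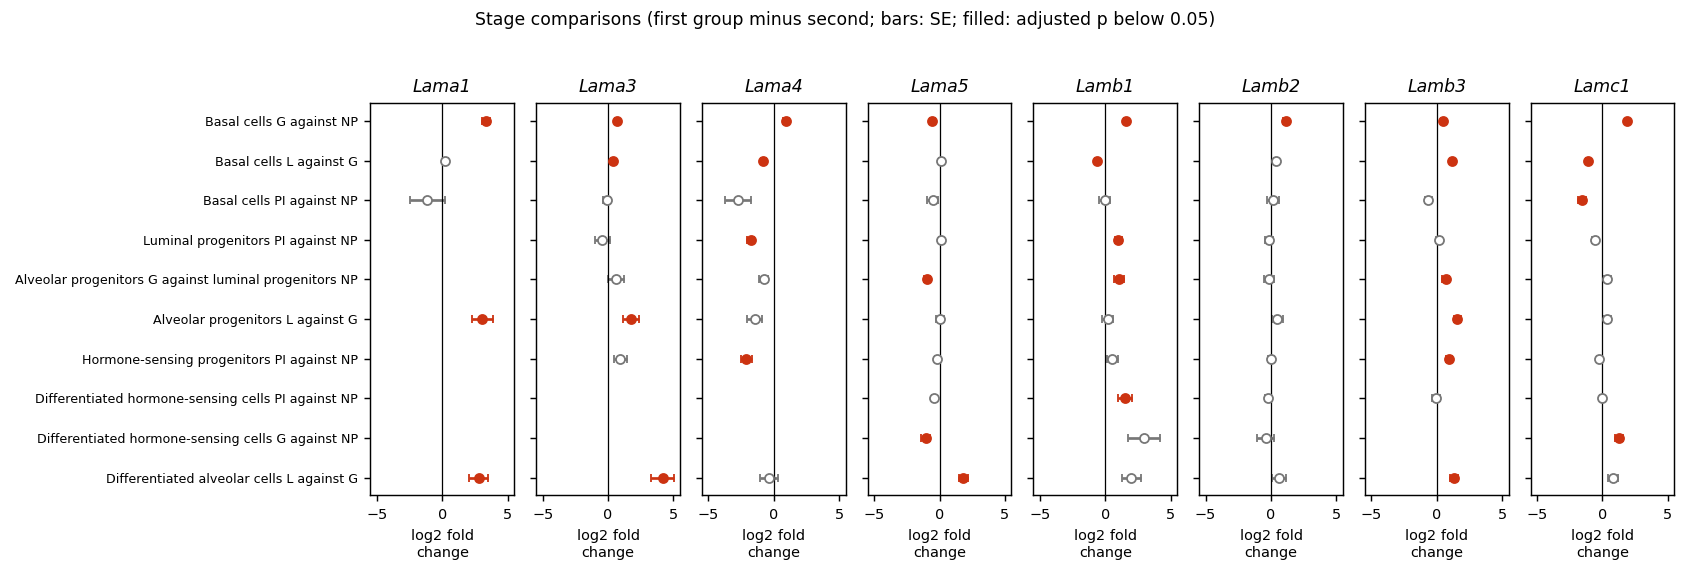
Log2 fold change of each laminin chain (x, first group minus second, bars for SE) in the 10 stage comparisons (y), filled red where the adjusted p of edgeR's quasi-likelihood test was below 0.05; chains not tested or at 0 UMIs in all mice of a group are left out. In basal G against NP 7 chains were called higher and 1 lower, where 40.4% of all genes were called. In basal L against G 2 were called higher and 3 lower, where 50.1% of all genes were called. Lama4 lies to the left of 0 in the PI comparisons shown.

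The genes that receive or bind laminin were read from lists of 9 receptors, 9 basement membrane partners and 4 hemidesmosome anchors. In basal cells 7 of 8 tested partners rose and 1 fell from NP to G, where 40.4% of all genes were called (21.4% higher). From G to L 4 fell, 1 rose and 3 were not called, where 50.1% of all genes were called (25.1% lower). Nid1 went from 21.2 and 16.5 CPM in NP to 85.2 and 106 CPM in G (2.39 ± 0.19) and to 24.0 and 20.4 CPM in L (-1.98 ± 0.16). Col4a1, a collagen IV chain, went from 216 and 311 to 1153 and 1136 CPM (2.20 ± 0.18) and to 313 and 341 CPM (-1.69 ± 0.17). Col4a2 and Agrn, the proteoglycan agrin, also rose from NP to G (2.24 ± 0.16 and 1.51 ± 0.18).

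All 4 hemidesmosome anchors (Dst, Plec, Col17a1 and Cd151) rose in basal cells from G to L, where 24.9% of all genes did, with a median log2 difference of 0.90. From NP to G 2 of them rose and 2 fell, where 40.4% of all genes were called. Of 9 receptors, 2 rose and 4 fell from NP to G. From G to L 2 rose and 3 fell, where 50.1% of all genes were called. Among them the α7 integrin Itga7 rose from 0.758 and 0.915 to 6.96 and 4.03 CPM (2.81 ± 0.54). The netrin Ntn4, which binds laminin, rose from 1.77 and 1.60 CPM in G to 16.2 and 14.3 CPM in L (3.29 ± 0.32). In basal cells of PI against NP, 3 of 8 tested partners fell and 1 rose, where 4.82% of all genes were called. Col4a1 (-2.47 ± 0.32, 3 and 18 UMIs in PI), Col4a2 (-2.07 ± 0.29, 5 and 16 UMIs in PI) and Sparc (-1.72 ± 0.16) fell. Ntn4 (2.49 ± 0.56, 3 and 7 UMIs in PI) rose.

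In luminal cells of PI against NP, 4 of 7 tested partners fell in luminal progenitors, where 26.1% of all genes were called (11.7% lower). They were Col18a1 from 10.9 and 9.54 to 1.35 and 2.51 CPM (-2.27 ± 0.42), Ntn4 (-2.09 ± 0.47), Hspg2 (-1.64 ± 0.38) and Sparc (-1.81 ± 0.60, with overlapping mice). Sparc stood at 53.5 CPM in NP replicate 2, whose fibroblast markers summed to 185 CPM, and at 9.36 CPM in NP replicate 1. The part of those markers was not tested. In hormone-sensing progenitors Nid1 rose from 1.74 and 1.73 to 11.1 and 8.95 CPM (2.47 ± 0.38) and Bcam from 59.5 and 43.9 to 139 and 136 CPM (1.40 ± 0.15), while the syndecan Sdc1 fell (-1.02 ± 0.14) and Plec fell (-0.45 ± 0.13). In differentiated hormone-sensing cells Nid1 rose in PI (3.05 ± 0.42) and in G (3.74 ± 1.01, from 2 and 4 UMIs in G). Sparc fell in PI (-2.88 ± 0.33) and rose in G (2.23 ± 0.43). Col4a2 (-2.43 ± 0.65, 1 and 5 UMIs in PI) and Sdc1 (-0.75 ± 0.17) fell in PI. Itga3 (1 and 0 UMIs in G, from 21.8 and 22.8 CPM in NP) and Plec (-2.43 ± 0.28) fell in G. The falls of basal markers in PI and of luminal markers in G given above apply to these sums as well, and their part was not tested.

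In alveolar cells, the G progenitors had less Col18a1 (0 and 2 UMIs, against 36 and 23 in NP), Ntn4 (-2.20 ± 0.70), Dst (-1.78 ± 0.16) and Plec (-1.76 ± 0.15) than luminal progenitors of NP. In L against G, 3 of 4 hemidesmosome anchors and 4 of 7 partners rose in the progenitors and 1 partner fell, where 28.6% of all genes were called (15.7% higher). Named by size were Col17a1 (4.91 ± 0.58, with 0 and 4 UMIs in G), Col18a1 (0 and 2 UMIs in G, 23 and 9 UMIs in L), Sparc (3.70 ± 0.54) and Col4a2 (1.56 ± 0.33). In the differentiated cells 3 of 4 anchors and 4 of 7 partners rose and no partner fell, where 18.4% of all genes were called (9.26% higher). Named were Col17a1 (4.4 ± 0.59), Col18a1 (3.57 ± 0.60), Sparc (2.83 ± 0.31) and Nid1 (2.53 ± 0.78, from 3 and 3 UMIs in L). The basal, immune and stress values given above for these sums apply to them as well, and their part was not tested.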

How the data were processed

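Single-cell libraries were made by the authors with the 10x Chromium 3′ v2 chemistry and aligned to mm10; the submitters' processing notes name STAR, and no version is given in the sources used here. The deposited matrices hold raw UMI counts per gene and cell barcode, with no normalisation, and the authors' cell table gives quality flags, doublet calls and clusters. Their cells and clusters were used as deposited, and 44 sums of fewer than 20 cells were left out. Groups followed the sample titles (4 stages, 2 mice each). The spread behind the p-values was shared over all sums of a lineage and drawn towards that of the other genes. In the 10 comparisons the fits had 2 to 4 residual degrees of freedom. A further 9.74 to 27.0 (median over genes) were borrowed from the other genes, so the p-values do not rest on the 2 mice a group alone.

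Counts were summed per mouse and cluster, filtered (filterByExpr, minimum count 10, minimum total 15), scaled by TMM and tested with edgeR 4.0.16 quasi-likelihood fits in R 4.3.3 over all sums of a lineage. Interactions were fitted with a mouse term. The SE is the absolute log2 fold change divided by the square root of F. Depth ran from 111570 to 26454518 UMIs a sum; intervals and the floor of 3 counts cover counting error only. Scripts were tested on simulated data. Alternatives were DESeq2 1.42.0, RLE scaling, no filter, fits of only the groups compared, equal depth, milk protein genes left out, a replicate block and leaving out each mouse. The members and gene lists were chosen with earlier results of these data known. Named genes were all 8 chains, 2 other laminin chains (1 more of the rule is not reported here), up to 4 called genes of largest change from the receptor, partner and hemidesmosome lists, and the 3 genes correlating best with each chain; Cd151 and the other anchors are also named as list members. Sequences were copied from RefSeq start windows of GRCm38.p6.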

Additional observations from a re-analysis of the deposited data

Results flagged for a closer look

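For 7 changes of laminin chains, the test of the difference between cell types itself passed (adjusted p by edgeR over all genes tested). Between L and G, over basal cells, alveolar progenitors and differentiated alveolar cells, these were Lamc1 (adjusted p = 4.39e-05), Lama3 (0.000684), Lama1 (0.000991), Lamb1 (0.00686) and Lama5 (0.00955). Of all genes tested, 27% passed this test. Lamc1 fell in basal cells and was not called in either alveolar cell type, while Lama1 rose in both alveolar cell types and was not called in basal cells. Between PI and NP, over basal cells, luminal progenitors and both hormone-sensing types, the chains were Lamc1 (0.00406) and Lamb3 (0.0214), where 19.2% of all genes passed. Neither passed among the luminal types alone, a comparison added after seeing the data. The PI basal sums behind the last pair held 27 and 53 cells.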

How the results depend on the processing

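Of 31 calls of the 8 chains in the 10 comparisons, 8 held under every alternative that tested them, and 5 of these were not tested in the sums thinned to equal depth. Each comparison has 2 mice a group, and the thinnest sums (basal cells of PI, differentiated hormone-sensing cells of G, differentiated alveolar cells of L) limit what could be called. The replicate numbers do not pair the mice: deviations of same-numbered sums correlated at -0.0817 to 0.0775.

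With sums thinned to equal depth, the number of chains called was 1 in basal G against NP (8 in full), 0 in basal L against G (5), 0 in basal PI against NP (1), 1 in luminal progenitors (2), 0 in hormone-sensing progenitors (2), 0 and 0 in differentiated hormone-sensing cells of PI and G (1 and 2) and 1 in differentiated alveolar cells (4); thinning discards most UMIs. These counts take chains that were too low to test after thinning as not called. Of the called chains, only Lama3 and Lamb3 were tested and lost in basal G against NP. In basal L against G these were Lama3, Lamb3 and Lamc1. DESeq2 called 1 in luminal progenitors, 1 in alveolar progenitors of G (3 by edgeR), 1 in those of L (3), 0 in hormone-sensing progenitors and 0 in differentiated hormone-sensing cells of PI. With no filter 1 was called in alveolar progenitors of G, with RLE scaling 1 in differentiated hormone-sensing cells of G, and with the replicate block 0 in those of PI (Lamb1 at 1.46). In basal cells of low luminal keratin 5 were called in G against NP, and in luminal types only the PI against NP interaction called 0 (2 with basal cells). These last settings were chosen after seeing the data. The causes were not tested.

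Leaving out 1 mouse at a time, the count called ran from 6 to 8 in basal G against NP, 4 to 5 in basal L against G, 0 to 1 in basal PI against NP, 1 to 1 in luminal progenitors, 1 to 2 in alveolar progenitors of G, 1 to 2 in those of L, 0 to 2 in hormone-sensing progenitors, 0 to 1 and 0 to 2 in differentiated hormone-sensing cells of PI and G, and 2 to 3 in differentiated alveolar cells.

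Of 40 sign changes, 1 was of a called value, Lamb3 in basal G against NP (-0.021 in cells of low luminal keratin). In basal PI against NP, Lamb1 was 0.072 with RLE scaling, 0.069 with DESeq2 and 0.082 with only the 2 groups, and Lama3 was 0.0018 with DESeq2 and 0.011 with only the 2 groups. In hormone-sensing progenitors Lamb2 was 0.023 with DESeq2, 0.039 thinned, 0.0024 with no filter and 0.035 with the replicate block. In differentiated hormone-sensing cells of PI, Lamc1 was 0.0047 with only the 2 groups and 0.0012 with no filter, and Lamb3 was 0.047 with the replicate block. Lamb3 was -0.15 thinned in luminal progenitors, and Lama5 -0.041 with no filter in alveolar progenitors of L.

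Leaving out 1 mouse turned the sign of uncalled values, with these ranges. In basal L against G: Lama5 -0.12 to 0.41 and Lama1 -0.046 to 0.51. In basal PI against NP: Lama1 -8.12 to 0.58, Lamb1 -0.22 to 0.12 and Lamb2 -0.25 to 0.38. In luminal progenitors: Lama3 -1.23 to 0.062 and Lamb2 -0.36 to 0.14. In alveolar progenitors of G: Lamb2 -0.70 to 0.19 and Lama3 -0.63 to 1.20. In alveolar progenitors of L: Lama5 -0.31 to 0.38, Lamb1 -0.11 to 0.45 and Lamb2 -0.0031 to 1.01. In hormone-sensing progenitors: Lamb2 -0.13 to 0.16. In differentiated hormone-sensing cells: Lamc1 -0.12 to 0.076 and Lamb3 -0.31 to 0.37 in PI, and Lamb1 -5.93 to 3.54 in G. In differentiated alveolar cells: Lama4 -1.53 to 0.33 and Lamb1 -0.037 to 2.69. Leaving out the cells below the median UMI total of each sum moved 28 of 75 levels by over 1 SD.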
